A study of Mus musculus with 12 samples.

Results

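The 7 neuronal surface genes of the immunoglobulin superfamily described here, Lsamp, Cadm2, Alcam, Ncam2, Cd47, Cd200 and Il1rap, were followed in cortical interneurons and pyramidal neurons of mice that had received nicotine or saline. They were chosen by name, with earlier results of these data known. All 7 were found among the 35129 gene entries of the deposited table. All lie on mouse chromosome 16, where 356 entries start between the first of them (Il1rap) and the last (Ncam2).

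Proteins of this superfamily carry immunoglobulin-like domains outside the cell. Many hold neighbouring neurons together by binding the same protein or a relative on the opposite membrane, guide growing axons and shape synapses. Lsamp is a lipid-anchored IgLON protein of neurons, Cadm2 (SynCAM 2) is a synaptic adhesion molecule, and Ncam2 and Alcam are transmembrane adhesion proteins of axons. Cd47 and Cd200 are neuronal ligands of the receptors Sirpa and Cd200r1 on myeloid cells such as microglia. Il1rap is the shared accessory chain of interleukin-1 family receptors, and its neuronal form also bridges synapses through receptor-type tyrosine phosphatases.

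Sst-neurons came from GIN mice on an FVB background, in which a Gad promoter drives enhanced green fluorescent protein in a group of somatostatin-positive interneurons. Thy1-neurons came from YFPH mice on a B6 background, in which a Thy1 promoter marks pyramidal neurons of layer V with yellow fluorescent protein. Cell type, mouse line and strain therefore cannot be told apart. All mice were males of 20 g aged 5 to 7 weeks, and each carried a subcutaneous mini pump for 14 days that delivered saline (groups Sst and Thy1) or nicotine hydrogen tartrate at 48 mg/kg/d (groups Sst+Nic and Thy1+Nic). Fluorescent cells were aspirated by hand from dissociated cortex, with 10 cells to a tube and more than 1 tube from each mouse. Each library belonged to 1 mouse. Of the 12 libraries in the design, 10 were analysed here, with 3 each in Sst and Thy1+Nic and 2 each (replicates 2 and 3) in Sst+Nic and Thy1.

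A library held between 2915738 and 4878326 counted fragments, and levels are given as CPM, the fragments counted on an entry for each 1e6 counted in the library. A count of 0 allows up to 3 fragments, or between 0.615 and 1.03 CPM, and this limit covers counting error only. The Sst gene, which checks the labels, was at 53779 to 126088 CPM in the 5 libraries of Sst-neurons and at 1.15 to 49.2 CPM in 4 of the 5 libraries of Thy1-neurons. Thy1 replicate 3 stood apart from these with 3795 CPM of Sst. Mitochondrially encoded genes took 16.3% to 22.1% of the fragments in Sst-neurons and 31.4% to 38.5% in Thy1-neurons, and leaving these genes out of the counts changed no call of a member. Of the mRNA entries between Il1rap and Ncam2, 111 of 265 (41.9%) held at least 1000 fragments over all libraries, against 1641 of 19850 (8.27%) on other chromosomes. Genes that every cell or neuron uses were nearly absent there, with at most 4 fragments of Actb, 44 of Gapdh, 13 of Snap25, 1 of Thy1 and 0 of Tubb3 in any library. Entries on other chromosomes therefore do not give their genes' levels reliably, and the library totals, TMM factors and shares over all entries rest on the table as it stands.

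Most markers of cell types lie on other chromosomes, so their absence says little. In the Sst interneuron list (9 genes) the Sst gene made up nearly all of the sum in Sst-neurons, and Gad1, Gad2 and Dlx5 were at 0.995 CPM or less. The entry of Sox6 ran against the labels with 7.65 to 117 CPM in Sst-neurons and 335 to 519 CPM in Thy1-neurons. Dlx1 went with the labels, at 0 to 3.73 CPM in Sst-neurons and 0 in Thy1-neurons. Slc32a1 was at 0.249 to 27.4 CPM in Sst-neurons and 0.295 to 6.87 in Thy1-neurons, Lhx6 at 0 to 17.8 and 0 to 6.87, and Elfn1 at 0 to 3.48 and 0 to 4.96. The pyramidal neuron list (8 genes) summed to 51.0 to 76.5 CPM in Sst-neurons and 18.2 to 90.4 CPM in Thy1-neurons, so it was not lower in Sst-neurons, and Slc17a7, Neurod1 and Bcl11b were at 0. The endothelial list (5 genes) separated the cell types in the same direction as Lsamp and Cd200, with 219 to 317 CPM in Sst, 334 to 422 in Sst+Nic, 128 to 168 in Thy1 and 118 to 193 in Thy1+Nic. Nearly all of that sum was the entry of Flt1, while Cdh5 was at 0 and Cldn5, on chromosome 16, was at 0 in 6 of the 10 libraries. The astrocyte list (6 genes) summed to at most 2.02 CPM with Gfap and Mfge8 at 0, the microglia list (6 genes) to at most 16.4 CPM with Aif1, Itgam and C1qa at 0, and the 3 red blood cell entries were at 0. Olig1, an oligodendrocyte marker on chromosome 16, was at 15.6 to 26.6 CPM in Sst, 21.3 and 107 in Sst+Nic, 0 and 46.4 in Thy1 and 0 to 8.06 in Thy1+Nic. Olig2 was highest in the same library as Olig1, Sst+Nic replicate 3, with 53.7 CPM, and at 0 to 21.1 CPM in the others. The part of these cells in the results was not tested.

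The start regions of the genes whose levels differed most between the 2 cell types are shown so that their letters can be read beside those levels. Each run holds the 250 bases before and the 50 bases after a RefSeq start site on GRCm38.p6, read 5′ to 3′ on the strand of the gene, and capitals mark the GC box GGGCGG, matched on either strand. Lsamp has 2 such regions in the RefSeq table, at chr16:39984114-39984413 and chr16:41532576-41532875 on the plus strand. The start sites behind these regions need not be the outermost end of the gene, which lies further upstream for all members but Alcam and Ncam2. The shown stretches of Cd200 (chr16:45409004-45409303) and Alcam (chr16:52453032-52453331) lie on the minus strand and that of Il1rap (chr16:26581455-26581754) on the plus strand.
Lsamp, first start: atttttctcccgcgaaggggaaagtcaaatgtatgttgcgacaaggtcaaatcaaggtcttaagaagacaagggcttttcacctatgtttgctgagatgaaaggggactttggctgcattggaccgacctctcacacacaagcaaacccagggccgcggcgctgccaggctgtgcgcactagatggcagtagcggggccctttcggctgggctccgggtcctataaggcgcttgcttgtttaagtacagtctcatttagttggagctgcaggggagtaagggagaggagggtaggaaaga
Lsamp, second start: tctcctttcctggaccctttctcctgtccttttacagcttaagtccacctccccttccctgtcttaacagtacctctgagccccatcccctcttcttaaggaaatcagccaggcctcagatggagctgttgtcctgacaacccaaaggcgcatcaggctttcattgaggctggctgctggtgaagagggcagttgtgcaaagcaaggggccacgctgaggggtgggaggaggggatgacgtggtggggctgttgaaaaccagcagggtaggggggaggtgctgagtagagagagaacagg
Cd200: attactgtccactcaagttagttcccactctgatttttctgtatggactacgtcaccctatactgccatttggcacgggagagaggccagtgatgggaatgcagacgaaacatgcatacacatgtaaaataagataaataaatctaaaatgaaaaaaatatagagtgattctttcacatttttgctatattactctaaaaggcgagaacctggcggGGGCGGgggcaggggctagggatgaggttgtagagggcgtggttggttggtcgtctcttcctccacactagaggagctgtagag
Alcam: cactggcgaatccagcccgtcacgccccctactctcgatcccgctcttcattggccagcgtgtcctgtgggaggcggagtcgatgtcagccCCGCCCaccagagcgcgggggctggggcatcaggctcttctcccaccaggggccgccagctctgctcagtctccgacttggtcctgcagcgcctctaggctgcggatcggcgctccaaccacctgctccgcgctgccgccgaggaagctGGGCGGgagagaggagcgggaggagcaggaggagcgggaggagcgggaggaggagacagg
Il1rap: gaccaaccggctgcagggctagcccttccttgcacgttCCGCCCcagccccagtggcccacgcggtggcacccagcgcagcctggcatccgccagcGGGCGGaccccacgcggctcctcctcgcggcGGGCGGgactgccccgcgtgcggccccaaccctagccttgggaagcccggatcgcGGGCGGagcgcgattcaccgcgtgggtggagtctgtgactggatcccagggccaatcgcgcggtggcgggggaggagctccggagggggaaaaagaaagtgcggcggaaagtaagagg

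Neither Lsamp region held a GC box, whereas Cd200 held 1, Alcam 2 and Il1rap 4. Cadm2 held 1, Ncam2 2, and Cd47 3 in each of its 2 overlapping start regions. Of all 32851 RefSeq start regions of this length, 35.7% held at least 1. The GC content was 53.0% and 56.3% at the Lsamp starts and 45.0% at Cd200, where all start regions had a median of 52.7% and a lower quartile of 45.7%. It was 62.7% at Cadm2, 69.7% at Alcam, 72.0% at Il1rap, 74.0% and 74.3% at Cd47 and 75.7% at Ncam2, all above the upper quartile of 61.7%. The cAMP response element core TGACG, on either strand, was found at the second Lsamp start and at Cd200, Alcam and Cd47 but not at Cadm2, Ncam2 or Il1rap, against 20.8% of all start regions. TATAAA was found in none of the 9 regions, and 13.6% of all regions held it. These are letter matches in a window and were not tested as binding sites.

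**Figure D1:**
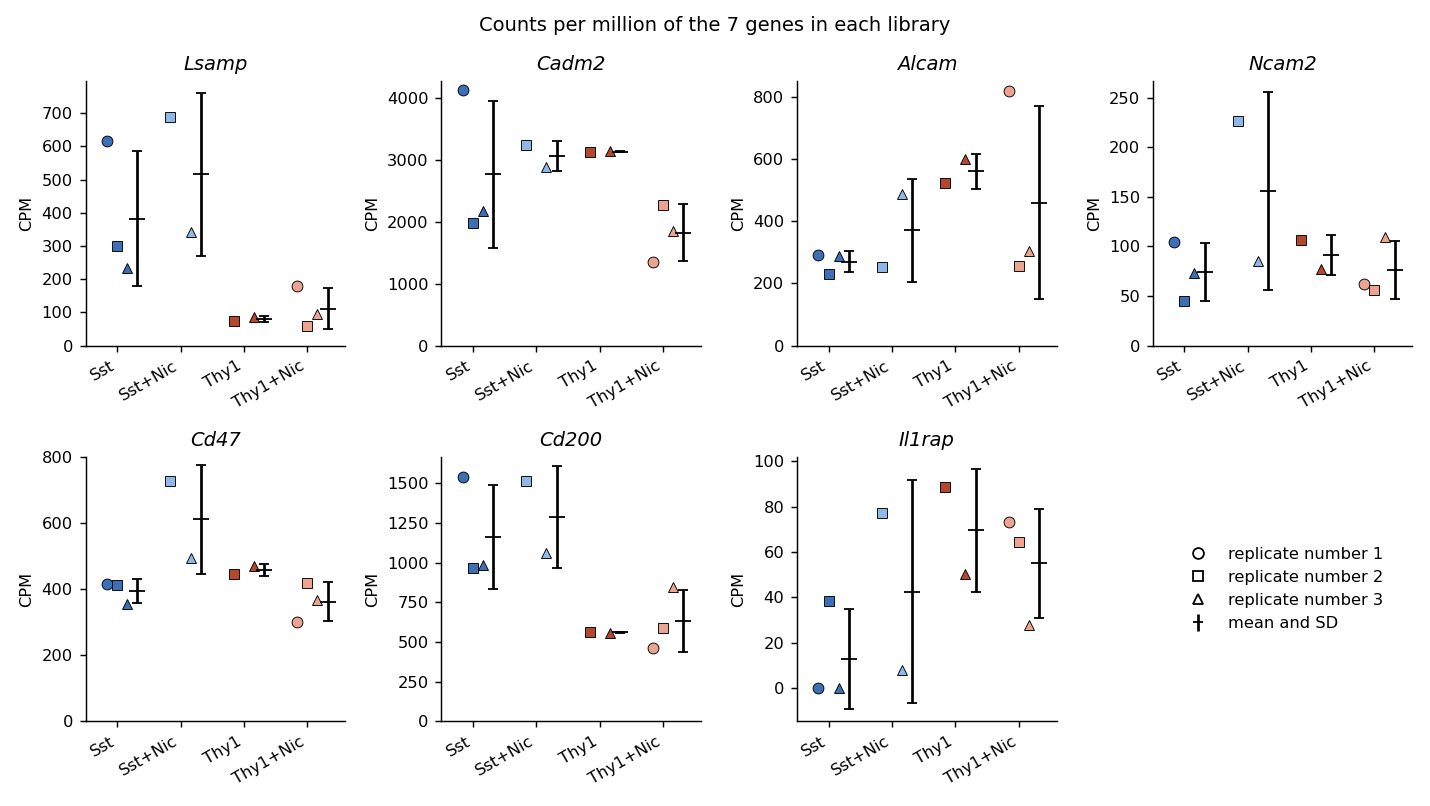
Level in CPM (linear axes) of each of the 7 genes in every library, by group. Points are libraries, with the replicate number as their shape, and bars are the mean and SD (n = 3 for Sst and Thy1+Nic, n = 2 for Sst+Nic and Thy1). The Lsamp and Cd200 points of Sst-neurons all lie above those of Thy1-neurons, while Il1rap is at 0 in 2 Sst libraries.

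Levels of different genes were compared as CPM per kilobase of merged exon length. In Sst, Cd200 led with 350.3 ± 99.0 CPM per kb (SD, n = 3), followed by Cadm2 with 281 ± 121, Cd47 with 62.9 ± 5.61, Alcam with 37.9 ± 4.77, Lsamp with 22.2 ± 11.9, Ncam2 with 6.54 ± 2.58 and Il1rap with 1.12 ± 1.94. The libraries of Cd200 and Cadm2 overlapped, as did those of Alcam and Lsamp, and the other neighbours in this order did not. In Thy1, Cadm2 led with 319 ± 1.32 CPM per kb (SD, n = 2) before Cd200 with 169 ± 1.07, Alcam with 78.6 ± 7.74, Cd47 with 72.9 ± 2.83, Ncam2 with 8.07 ± 1.82, Il1rap with 6.13 ± 2.38 and Lsamp with 4.64 ± 0.540. Alcam and Cd47 overlapped there, as did Ncam2 with Il1rap and Il1rap with Lsamp. By group means Lsamp thus stood above Ncam2 and Il1rap in Sst and below both in Thy1, although in Thy1 replicate 3 it was above Il1rap (5.02 against 4.45 CPM per kb).

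The order of the 2 leading genes held within each library of Sst-neurons and of Thy1, but not of Thy1+Nic. Cd200 stood above Cadm2 per kilobase in all 5 libraries of Sst-neurons, at 109% to 143% of it. In Thy1 it was at 53.4% and 52.6% of Cadm2, and in Thy1+Nic at 102%, 76.0% and 136% in replicates 1, 2 and 3. The Thy1+Nic libraries therefore spanned both orders. Alcam took 24.8% of the summed CPM per kb of the 7 genes in Thy1+Nic replicate 1 and between 3.54% and 12.7% in the other 9 libraries, which sets that library apart.

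**Figure D2:**
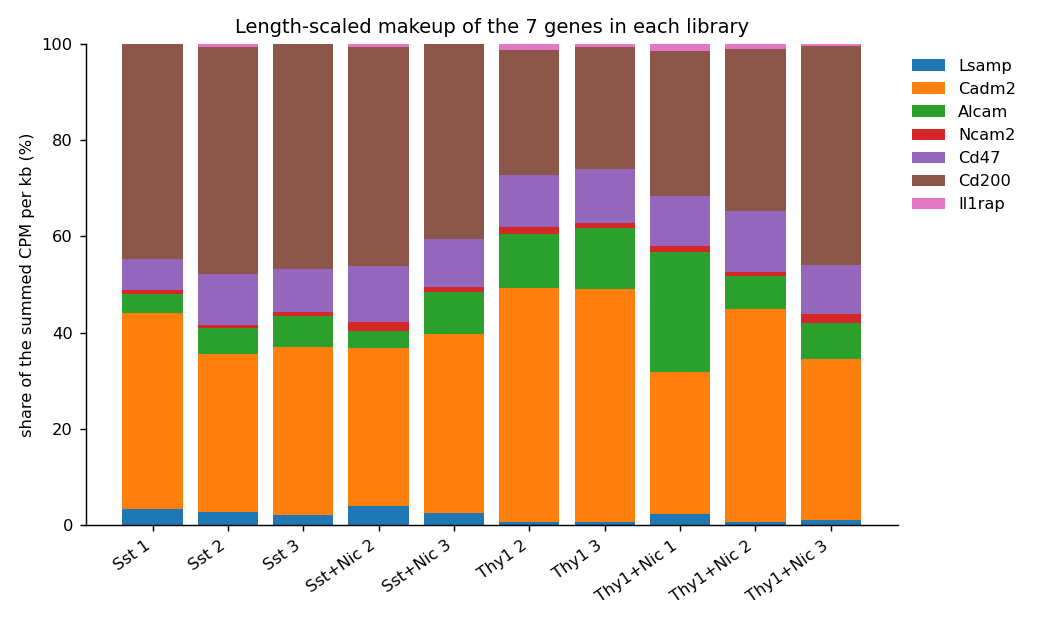
Share of each of the 7 genes in their summed CPM per kilobase of exon (%, stacked to 100) in each of the 10 libraries. The Cd200 share is above the Cadm2 share in all 5 libraries of Sst-neurons and below it in Thy1 replicates 2 and 3, and the Alcam share of 24.8% in Thy1+Nic replicate 1 stands out.

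The first question was how the genes differed between the cell types under saline. Lsamp and Cd200 were higher in Sst than in Thy1 in every library, and Alcam, Cd47 and Il1rap were lower in every library. In Sst against Thy1, 0 of the 7 genes passed the test (edgeR, with an adjusted p under 0.05 and more than a 2-fold change), where 1.72% of all entries tested did. Unadjusted p-values were under 0.05 for 3 of the 7 genes (Lsamp, Alcam and Cd200), against 16.3% of all 6350 entries tested, and DESeq2 called 2 of the 7 (Lsamp and Alcam), against 8.87% of all entries. Of entries with a mean of at least 20 CPM, 27.5% were higher in Sst and 16.5% lower in Sst without overlap of the libraries, and between Il1rap and Ncam2 these shares were 15.7% and 20.5%. The median log2 fold change was -0.39 over the 7 genes and 0.05 over all entries.

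Lsamp (chromosome 16, 39984254 to 42181679, plus strand) was at 616, 299 and 233 CPM in Sst and at 73.3 and 86.5 CPM in Thy1. Every Sst library was above both Thy1 libraries, although the Sst libraries themselves differed by 2.64-fold. Sst exceeded Thy1 by a log2 fold change of 2.04 (SE 0.43, 95% interval 1.03 to 3.06), with an adjusted p of 0.0758 in edgeR. DESeq2 gave 1.98 with an adjusted p of 1.4e-04. Without Thy1 replicate 3, the library with Sst counts, the log2 fold change of Lsamp was 2.24 with an adjusted p of 0.247, where the lone Thy1 library was assumed to vary like the Sst libraries.

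Cd200 (45382111 to 45409060, minus strand), the ligand that restrains myeloid cells, was at 1543, 964 and 983 CPM in Sst and at 564 and 559 CPM in Thy1. The lowest Sst library lay well above both Thy1 libraries, which were nearly equal. On the log2 scale the difference was 0.86 (SE 0.23, 95% interval 0.31 to 1.41) with an adjusted p of 0.137. The receptor genes gave few or no counts. Cd200r1 was at 6.62 CPM in Thy1+Nic replicate 1 and at 0 in the other libraries, and Cd200r2, Cd200r3 and Cd200r4 were at 0 throughout.

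Alcam (52248996 to 52453081, minus strand), which binds itself and Cd6, went the other way. It was at 292, 231 and 287 CPM in Sst and at 521 and 599 CPM in Thy1, and the groups did not overlap. The fitted log2 fold change was -1.24 (SE 0.23, 95% interval -1.78 to -0.69), with an adjusted p of 0.0538 in edgeR, 5.9e-06 in DESeq2 and 0.0350 in limma voom with sample quality weights. The call of Alcam under saline thus depended on the tool. Without Thy1 replicate 3 the log2 fold change was -1.05 with an adjusted p of 0.386.

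Il1rap (26581509 to 26730128, plus strand) was the lowest of the 7 genes in Sst, with 0, 38.3 and 0 CPM against 88.8 and 50.5 CPM in Thy1. Only Sst replicate 2 held any count of it, and the 0 counts of replicates 1 and 3 allow up to 0.746 and 0.810 CPM. The fit gave a log2 fold change of -2.43 (SE 1.99, 95% interval -7.14 to 2.27), with an adjusted p of 0.662. With limma voom it was -6.16 with an adjusted p of 0.157. Without the filter on low counts edgeR called it, at -2.42 with an adjusted p of 0.0243. Without Sst replicate 2 the remaining Sst libraries are at 0, so the fitted -11.16 is no measure of the size of the difference. The endothelial marker Cldn5 had counts in 4 of the 10 libraries, with 35.7 CPM in Sst replicate 2, 13.1 in Sst+Nic replicate 3 and 12.1 and 7.36 in Thy1+Nic replicates 1 and 3. The other endothelial markers in Sst replicate 2 were at 0 (Pecam1, Cdh5), 0.510 (Tek) and 228 CPM (Flt1, with 317 and 219 in Sst replicates 1 and 3). Cldn5 was at 0 in both Thy1 libraries and in replicate 2 of Sst+Nic and Thy1+Nic, where Il1rap was at 77.2 and 64.3 CPM. The part of Cldn5-expressing cells in the Il1rap levels was not tested. Exons of Il1rap share 552 bases (4.86%) with the antisense gene Gm20319, which is no entry of the table, and strand use in counting is not given in the sources used here.

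The remaining members were closer between the cell types. Cd47 (49851328 to 49912503, plus strand), the ligand of Sirpa, was at 416, 414 and 354 CPM in Sst and at 445 and 470.3 CPM in Thy1. These groups did not overlap, but the gap was small, with a log2 fold change of -0.38 (SE 0.24) and an adjusted p of 0.527. Cadm2 (66655416 to 67620917, minus strand) was at 4129, 1985 and 2169 CPM in Sst, on both sides of the 3119 and 3138 CPM in Thy1. Its log2 fold change was -0.39 with a 95% interval of -1.03 to 0.26. Ncam2 (81200697 to 81624290, plus strand) was at 104, 45.4 and 72.9 CPM in Sst and at 106 and 76.9 CPM in Thy1, with a log2 fold change of -0.50 and a 95% interval of -1.43 to 0.43. For both of these adhesion genes the intervals reach from a fall of at least 2-fold to a small rise, so a difference was not detectable with this spread.

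The same cell type comparison was then made in the mice that had received nicotine. Lsamp, Cadm2, Cd47 and Cd200 were higher in both Sst+Nic libraries than in all 3 Thy1+Nic libraries, and no member was lower without overlap. Of entries with a mean of at least 20 CPM, 34.0% were higher and 10.9% lower in this way, and 35.2% and 12.5% between Il1rap and Ncam2. After scaling by TMM (trimmed mean of M-values), only Lsamp and Cd200 still did not overlap. In Sst+Nic against Thy1+Nic, 0 of the 7 genes passed the edgeR test, where 0.507% of 6509 entries did. Lsamp alone had an unadjusted p under 0.05, against 15.8% of entries, and DESeq2 called 1 member, again Lsamp, against 7.80% of entries.

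Lsamp was at 689.7 and 343 CPM in Sst+Nic and at 178, 58.1 and 96.0 CPM in Thy1+Nic. The groups did not overlap, and Thy1+Nic replicate 1 with 178 CPM lay nearest to the other group. The log2 fold change was 1.68 (SE 0.50, 95% interval 0.53 to 2.84) with an adjusted p of 0.200. Cd200 was at 1516 and 1063 CPM in Sst+Nic and at 464, 585 and 849 CPM in Thy1+Nic. Its log2 fold change of 0.53 (SE 0.30, 95% interval -0.17 to 1.23) had an adjusted p of 0.496.

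Alcam was at 253 and 488 CPM in Sst+Nic and at 817, 256 and 304 CPM in Thy1+Nic. The groups overlapped, with Thy1+Nic replicate 1 far above the other 2 libraries of its group. The log2 fold change was -0.77 (SE 0.60, 95% interval -2.18 to 0.63). It was -0.03 without Thy1+Nic replicate 1, -0.31 without Sst+Nic replicate 2 and -1.53 without Sst+Nic replicate 3. Il1rap was at 77.2 and 7.79 CPM in Sst+Nic and at 73.1, 64.3 and 27.7 CPM in Thy1+Nic, so that the 2 Sst+Nic libraries lay on either side of the whole Thy1+Nic group. Ncam2 was at 227 and 85.3 CPM in Sst+Nic and at 61.6, 56.5 and 109.6 CPM in Thy1+Nic, with a log2 fold change of 0.52 (SE 0.47).

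Averaged over saline and nicotine in 1 fit of all 10 libraries, Lsamp passed the test and the other 6 genes did not. That is 1 of 7, where 4.95% of 8242 entries passed in either direction and 2.17% were called higher in Sst-neurons, with 10.2% called in either direction between Il1rap and Ncam2. Lsamp was at 436 ± 203 CPM in Sst-neurons and 98.4 ± 46.8 CPM in Thy1-neurons (SD, n = 5 each). The log2 fold change was 1.86 (SE 0.35, 95% interval 1.10 to 2.62), or 3.63-fold, with an adjusted p of 0.00839. Lsamp was called in each of the 9 alternatives of the processing, with log2 fold changes of 1.84 to 2.24, and in each of the 10 fits without 1 library, with 1.65 to 2.11 and adjusted p-values of 9.8e-04 to 0.0198. Without Thy1 replicate 3 it was 1.97 with an adjusted p of 0.00293, and without Thy1+Nic replicate 1, the Thy1-neuron library with the highest Lsamp level, it was 2.11 with 0.00379.

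Cd200 did not overlap between the 5 libraries of Sst-neurons (964 to 1543 CPM) and the 5 of Thy1-neurons (464 to 849 CPM), nor did Lsamp. Of entries with a mean of at least 20 CPM, 10.8% were higher in Sst-neurons in this way, and 7.09% between Il1rap and Ncam2. The log2 fold change of Cd200 was 0.69 (SE 0.19, 95% interval 0.27 to 1.11), below the fold threshold and with an adjusted p of 0.0593. Alcam had -1.01 (SE 0.34, 95% interval -1.75 to -0.26) and an adjusted p of 0.124. Without Sst+Nic replicate 3, the Sst-neuron library with the most Alcam and the most Olig1 (107 CPM), whose part was not tested, it was -1.38 with an adjusted p of 0.0281. Without Thy1+Nic replicate 1, which stood apart in Alcam, it was -0.67 with 0.175, and without Sst+Nic replicate 2 it was -0.77 with 0.336. DESeq2 on all libraries gave -1.01 with an adjusted p of 0.0310.

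Il1rap had -1.74 (SE 1.17, 95% interval -4.28 to 0.81) and an adjusted p of 0.434 in the averaged comparison. It was called in 2 of 8 alternatives that kept all libraries, with log2 fold changes of -3.98 to -1.41 and adjusted p-values of 0.0111 to 0.626. Without Sst replicate 2 it was -6.09 with an adjusted p of 0.00573. With that library left out both remaining Sst libraries are at 0, so this fitted value is no measure of the size of the difference. For Cadm2, Cd47 and Ncam2 the averaged log2 fold changes were -0.08 (95% interval -0.54 to 0.38), -0.08 (-0.51 to 0.35) and 0.00 (-0.70 to 0.71). The intervals of Cadm2 and Cd47 exclude a difference of 2-fold or more in either direction, and so does that of Ncam2. The direction of Cadm2 and Cd47 turned to higher in Sst-neurons when the total counts were used without TMM, with 0.28 and 0.27, a scaling that moved the median over all entries from 0.08 to 0.41.

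**Figure D3:**
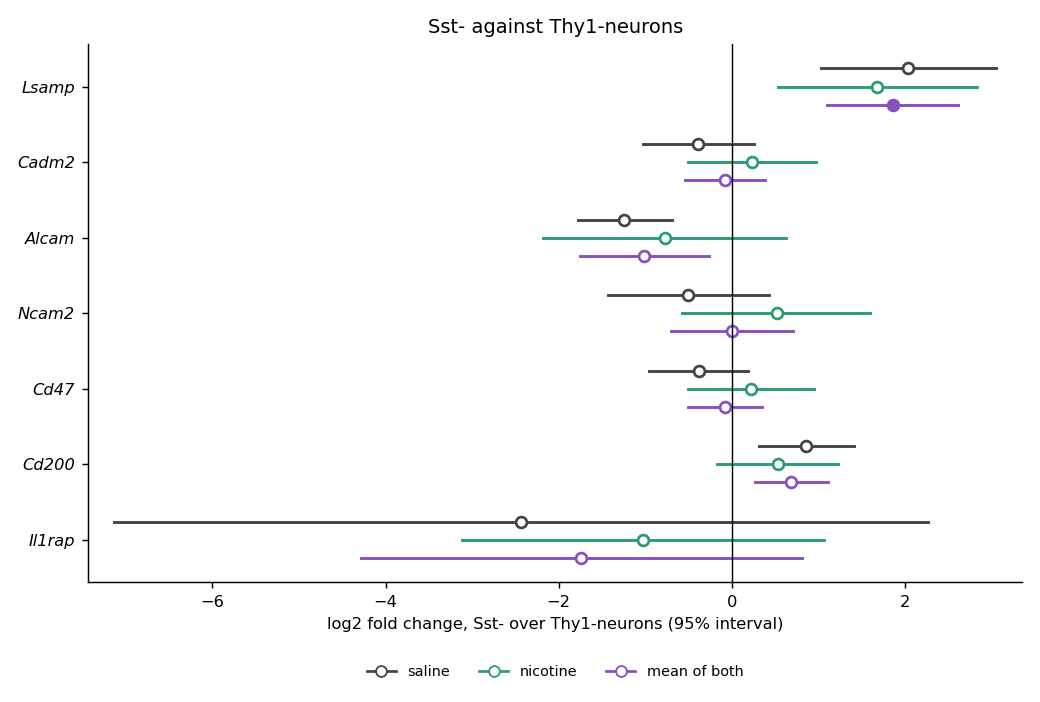
Log2 fold change of Sst- over Thy1-neurons (x axis) with its 95% interval for each of the 7 genes (y axis), under saline, under nicotine and averaged over both (edgeR). A filled point marks a called difference, which is Lsamp in the averaged comparison at 1.86; the Alcam intervals lie below 0 under saline and in the average, and those of Il1rap are the widest.

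The second question was whether nicotine changed these genes. In Sst+Nic against Sst, 0 of the 7 genes passed the test, where 0 of 6689 entries did (0%). In Thy1+Nic against Thy1, 0 of the 7 genes passed, where 0 of 6048 entries did (0%). No member had an unadjusted p under 0.05 in either cell type, against 4.19% of entries (280) in Sst-neurons and 4.37% (264) in Thy1-neurons. DESeq2 called 0 members in either comparison, with 19 entries (0.284%) and 14 entries (0.231%) called in all. The saline libraries are shared with the cell type comparison, so the 2 kinds of comparison are not independent.

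In Sst-neurons, Cd47 was higher in both nicotine libraries (729 and 495 CPM) than in all 3 saline libraries (416, 414 and 354 CPM). Cd47 was the only member without overlap, and 13.5% of entries with a mean of at least 20 CPM were higher in this way (14.7% between Il1rap and Ncam2). Its log2 fold change was 0.39 (SE 0.26, 95% interval -0.22 to 0.99), and its adjusted p was 1.000. In Thy1-neurons, Cd47 was lower in all 3 nicotine libraries (302, 419.7 and 366 CPM) than in both saline libraries (445 and 470.3 CPM), where 14.7% of entries were lower in this way and 26.4% of those between Il1rap and Ncam2. The log2 fold change there was -0.23 (SE 0.29, 95% interval -0.91 to 0.45), and the Thy1-neuron groups overlapped after TMM scaling.

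Cadm2 was the other member that did not overlap in Thy1-neurons. It was at 1344, 2273 and 1850.4 CPM in Thy1+Nic and at 3119 and 3138 CPM in Thy1, so that every nicotine library lay below the nearly equal saline libraries, on the TMM scale too. The log2 fold change was -0.67 (SE 0.30, 95% interval -1.35 to 0.01), with an unadjusted p of 0.0539 and an adjusted p of 1.000. In Sst-neurons Cadm2 was at 3232 and 2882 CPM with nicotine, within the 1985 to 4129 CPM of the saline libraries, and its log2 fold change was -0.03 (95% interval -0.68 to 0.62). The difference of the 2 nicotine effects on Cadm2 was 0.60 (SE 0.42, 95% interval -0.32 to 1.52).

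Ncam2 had the next largest nicotine value among the members in Sst-neurons after Il1rap, at 0.85 (SE 0.46, 95% interval -0.23 to 1.92). This value came with 1 high library, Sst+Nic replicate 2 with 227 CPM, and was 0.13 without it. The Il1rap value of 1.24 (SE 2.18) changed sign without that same library, which held 77.2 CPM of Il1rap against 7.79 CPM in replicate 3. For Lsamp the nicotine log2 fold changes were 0.22 (95% interval -0.74 to 1.18) in Sst-neurons and 0.57 (-0.61 to 1.74) in Thy1-neurons. The Thy1-neuron value rested on Thy1+Nic replicate 1 and was -0.00 without it. Cd200 had -0.06 (95% interval -0.63 to 0.50) and 0.26 (-0.42 to 0.94), and Alcam had 0.29 (-0.58 to 1.15) and -0.18 (-1.36 to 1.00).

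The effect of nicotine was also compared between the cell types with the interaction term of the fit of all 10 libraries. By edgeR, 0 of the 7 genes and 0 of 8242 entries (0%) passed, with 605 entries (7.34%) at an unadjusted p under 0.05 and 11 entries (0.133%) but 0 members called by DESeq2. The members ranged from -0.38 for Lsamp to 1.40 for Il1rap, with a median of 0.59 against -0.03 over all entries. Cd47, whose libraries separated in opposite directions in CPM, had 0.59 (SE 0.39, 95% interval -0.26 to 1.45) and an adjusted p of 0.776. Ncam2 had 0.99 (SE 0.64, 95% interval -0.39 to 2.38).

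**Figure D4:**
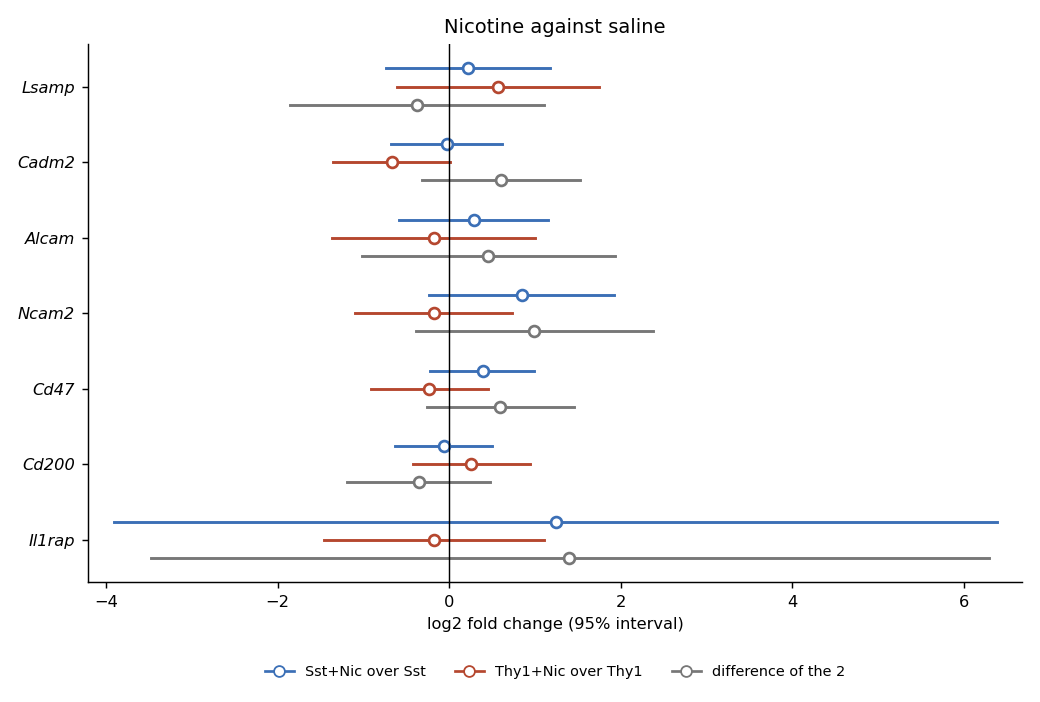
Log2 fold change of nicotine over saline (x axis) with its 95% interval for each of the 7 genes (y axis) separately in Sst- and Thy1-neurons, and the difference of the 2 (edgeR interaction term). None is called, and each interval includes 0; the interval of Cadm2 in Thy1-neurons, -1.35 to 0.01, only just does.

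Across the 10 libraries, whose differences in depth and composition all entries share, the members did not vary as 1 block. Lsamp and Cd200 varied most alike, with a Pearson r of 0.85 of log2(CPM + 1), followed by Ncam2 and Cd47 with 0.68 and Cadm2 and Cd47 with 0.67. Alcam and Cd200 ran most against each other, with -0.65, and Cd200 and Il1rap had -0.57. Among the 126 entries between Il1rap and Ncam2 with a mean of at least 20 CPM, those most like Cd200 were Lsg1 with 0.95 and Tfg with 0.94, and those most like Lsamp were Ncbp2 with 0.91 and Gm6767 with 0.90. The nearest to Cadm2 were Atp6v1a with 0.89 and Tomm70a with 0.85, and the nearest to Cd47 were Gsk3b with 0.86 and Lrrc58 with 0.79. Ncam2 was nearest to Cep97 with 0.82 and Lrrc58 with 0.78. Il1rap and Alcam had the weakest likeness, with Btg3 at 0.75 and Acap2 at 0.68 for Il1rap and Cpox at 0.71 and Acap2 at 0.64 for Alcam. These correlations describe 10 libraries, which include the group differences given above.

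Of 85 other genes of the superfamily with adhesion, guidance or immune roles, 84 were entries of the table and 15 of these lie between Il1rap and Ncam2. In the averaged cell type comparison 8 of the 15 passed the filter on low counts, of which 0 were called and 1, the nectin Pvrl3, had an unadjusted p under 0.05, against 21.6% of all entries and 29.6% of those between Il1rap and Ncam2. Pvrl3 was at 0.249, 0 and 0 CPM in Sst, 0 and 13.5 CPM in Sst+Nic, 0 and 30.5 CPM in Thy1 and 16.7, 41.6 and 36.2 CPM in Thy1+Nic, so that each group with 2 libraries held 1 at 0. Its adjusted p was 0.0891. The axon guidance receptor Robo1 was at 195, 187 and 209.7 CPM in Sst, 254 and 170.3 in Sst+Nic, 141 and 124 in Thy1 and 61.6, 119.8 and 146 in Thy1+Nic. The cell types did not overlap in CPM, before TMM scaling. Of entries with a mean of at least 20 CPM, 10.8% were higher in Sst-neurons in this way, and 7.09% between Il1rap and Ncam2. The averaged log2 fold change of Robo1 was 0.42 (SE 0.26, adjusted p of 0.381).

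Robo2 was at 197 to 441 CPM over the 10 libraries with overlap of the cell types, and Cxadr, a junction protein, at 34.8 to 137 CPM. Boc, a Hedgehog co-receptor, was at 40.0, 78.3 and 138 CPM in Sst and 26.8 and 5.74 CPM in Sst+Nic, and its log2 fold change of -2.73 (SE 0.85) with nicotine had an adjusted p of 1.000. Under saline 0 of 4 tested genes of the 15 were called (1.72% of all entries), and in Sst+Nic against Thy1+Nic 0 of 7 (0.507%). For nicotine 0 of 6 were called in either cell type, and 0 of 8 for the interaction, where 0% of all entries were called in each. The other 69 listed entries lie elsewhere, and 9 of them had a mean of at least 20 CPM. Of these 69, 35 were tested in the averaged comparison, 7 had an unadjusted p under 0.05 and 1 was called, shares to be read against 21.6% and 4.95% of all entries. It was the IgLON relative Iglon5 with a log2 fold change of 2.84 (SE 0.70, adjusted p of 0.0354), named after its value was seen. The entry was at 20.9 to 47.7 CPM in Sst-neurons and at 0.473 to 16.3 CPM in Thy1-neurons. No other of the 69 was called in any of the 6 comparisons by edgeR.

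In these bulk libraries a lower level can come from fewer cells with the transcript or from less of it per cell, which cannot be told apart. Levels relative to a library's total also carry its composition. After rescaling each member to the same mean over all libraries, 6 of 28 group means moved under TMM scaling by more than the group's SD. In groups of 2 libraries this SD can be small, as for Cd200 in Thy1 (3.57 CPM at a mean of 561 CPM), so a small move can count.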

How the data were processed

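Paired-end reads of SMARTer-amplified cDNA were aligned with TopHat to GRCm38, and HTSeq is named in the submitters' processing notes; versions, annotation and strand setting are not given in the sources used here. The authors deposited raw counts per gene entry, without normalization, and 10 columns matched a labelled sample. Positions and start regions were taken from RefSeq (GRCm38.p6) and exon lengths from GENCODE M21. The quasi-likelihood test of edgeR 4.0.16 (R 4.3.3) was run on all entries with TMM and filterByExpr (minimum count 10) and adjusted after Benjamini-Hochberg. Calls required an adjusted p under 0.05 together with a log2 fold change beyond 1 in size. Pairwise tests used the 5 libraries of 2 groups, and the averaged comparison and the interaction used all 10. Standard errors came from the log2 fold change and its F statistic. All 7 members were named, with the 2 entries most like each and the relatives lying between them. Alternatives were DESeq2 1.42.0, limma 3.58.1 and others given below, with 1 (total counts without TMM) chosen after seeing the data. Counts simulated at a dispersion of 0.4 carried planted log2 changes of 3, where the libraries had a common dispersion of 0.826 to 1.19. Of the planted changes tested, the pairwise fits recovered 20.8% to 30.1%, the averaged fit 92% and the interaction 2.67%. The absence of a call in a pairwise comparison or the interaction is therefore weak evidence that a gene did not change. The members and lists were chosen with earlier results of these data known. Levels used pandas 2.3.3. Same-numbered libraries did not deviate together, so numbers were not taken as pairs. The result of 1 marker list is not reported here.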

Additional observations from a re-analysis of the deposited data

Results flagged for a closer look

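Cd47 was flagged because its libraries moved in opposite directions with nicotine in the 2 cell types. The log2 ratio of mean CPM was 0.63 for Sst+Nic over Sst, with both nicotine libraries above all 3 saline libraries, and -0.34 for Thy1+Nic over Thy1, with all 3 nicotine libraries below both saline libraries. The difference itself was tested with the interaction term of edgeR, which gave 0.59 on the log2 scale (SE 0.39) and an adjusted p of 0.776, so a difference between the cell types was not established. After TMM scaling the Sst-neuron groups still did not overlap and the Thy1-neuron groups did.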

How the results depend on the processing

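Depth, amplified cDNA and 2 or 3 libraries a group limit these results; the common dispersion was 0.826 to 1.19. Of 684 member values recomputed, 623 kept direction and side of the threshold, 19 became called and 42, none of them called, changed sign; the cause was not tested. Under saline the members called rose from 0 to 2 with DESeq2, 1 with limma voom, 3 without a filter and 2 with a minimum of 10 counts in any library. Under nicotine they rose from 0 to 1 with DESeq2, 1 without a filter and 1 with at least 10 counts. Averaged, they rose from 1 to 2 with DESeq2, 2 with limma voom, 3 without a filter and 2 with at least 10 counts. With totals and no TMM they rose to 2, where Cd200 had 1.04 and 5.10% of all entries were called, against 4.95% in the main fit. With 1 library left out they ranged from 1 to 2 (2 without Sst replicate 2, adding Il1rap, or without Sst+Nic replicate 3, adding Alcam). No member was called for nicotine or the interaction in any alternative. DESeq2 gave no adjusted p for Il1rap in the averaged comparison and the interaction.

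Over all entries, the counts called were 109, 33 and 408 in the 3 cell type comparisons and under alternatives they were 563, 508 and 877 with DESeq2 on the same entries, 454 of 13830, 356 of 13428 and 727 of 16468 without a filter, 266 of 9201, 275 of 9464 and 766 of 11106 with at least 10 counts, and 109, 65 and 689 with limma voom (of 6350, 6509 and 8242); with 1 library left out they were 33 to 55, 0 to 56 and 326 to 432. DESeq2 called 19, 14 and 11 entries for nicotine in Sst-neurons, in Thy1-neurons and for the interaction, against 0, and at most 36 were called for the interaction. Called entries that were higher in Sst-neurons made up 45.5% under nicotine and 43.9% in the average, and 70.8% and 64.5% without TMM, which moved the median log2 fold change of all entries to 0.59 and 0.41.

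Signs that changed with all libraries kept were those of Cadm2 in Sst+Nic against Sst (0.02 with limma voom, 0.24 with the replicate block, 0.00 within the chromosome 16 stretch, 0.15 without TMM), Cd200 there (0.07 with the replicate block, 0.15 without TMM), Lsamp in Thy1+Nic against Thy1 (-0.00 with the replicate block), Alcam there (0.05 within the stretch), the average of Cadm2 and Cd47 (0.15 and 0.14 within the stretch, 0.28 and 0.27 without TMM), the average of Ncam2 (-0.07 with limma voom, -0.02 with at least 10 counts, -0.01 with the replicate block, -0.00 without mitochondrially encoded genes) and the Lsamp interaction (0.57 with the replicate block). The replicate block changed no call of a member and left 59, 9 and 377 entries called in the 3 cell type comparisons; same-numbered libraries correlated at -0.08 to 0.03 in their deviations, so the numbers do not pair them.

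With 1 library left out, signs changed for Ncam2 under nicotine (-0.18 to 0.96); for nicotine in Sst-neurons, Lsamp (-0.23 to 0.61), Cadm2 (-0.16 to 0.26), Alcam (-0.46 to 0.75), Cd200 (-0.22 to 0.09) and Il1rap (-1.02 to 10.18); in Thy1-neurons, Lsamp (-0.00 to 0.87), Alcam (-0.93 to 0.11) and Il1rap (-0.44 to 0.19); in the average, Cadm2 (-0.23 to 0.03), Ncam2 (-0.33 to 0.22) and Cd47 (-0.18 to 0.00); and in the interaction, Lsamp (-0.79 to 0.21), Alcam (-0.24 to 1.20) and Il1rap (-0.81 to 10.12). For the levels of members, each scaling was rescaled to the same mean over all libraries. They then moved by more than the SD of the group for 6 of 28 group means under TMM, 5 without mitochondrially encoded genes and 2 within the stretch.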
